A study of Rattus norvegicus with 28 samples.

Results

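Long lamina-free stretches are the parts of the rat genome that lie between neighbouring lamina-associated domains (LADs) and run for at least 1000000 bp without one. They were taken from the list of LADs in control cardiomyocytes, as gaps between consecutive domains of the same chromosome on chromosomes 1 to 20. Of 1618 such gaps, 332 (20.5%) reached that length, and the other 1286 are called shorter gaps here. Of the 11383 genes in the RNA table, 9025 (79.3%) lay wholly inside a long stretch. The choice of stretches used no RNA value.

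The cells were cardiomyocytes, the beating muscle cells of the heart, isolated from rats aged 6 to 8 months and kept in culture for 48 hours with adenovirus. Lamin B chromatin immunoprecipitation (ChIP) was done on cells given a scrambled shRNA or an shRNA against desmin (shDesmin), and the domain list comes from the scrambled controls alone, with 3 replicates and their inputs pooled. RNA was sequenced from 3 libraries of cells given a null adenovirus (null) and 3 libraries of cells given the shDesmin adenovirus. The treatment text shared by all samples names a scrambled control, whereas the RNA controls are labelled null, and the labels do not settle which of these the RNA controls received. Every RNA group carried a virus, and the labels do not state if the 3 libraries in each group stem from distinct animals, so p-values reflect the scatter among libraries, which may be technical. The labels name no strain. A stretch is a place where no domain was called in controls. It is not a measured absence of lamin, and domains after desmin depletion were not analysed here, so no stretch was followed into the shDesmin cells.

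The nuclear lamina is a mesh of lamin proteins under the inner nuclear membrane. Chromatin that touches it forms LADs, which are usually long, poor in genes and quiet, whereas the chromatin between them holds most active genes. Desmin is the main intermediate filament of heart muscle and ties the contractile lattice to the cell surface and the nucleus.

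The promoters of 4 genes inside the stretches are shown to let the reader compare their CG content, since runs of CG dinucleotides mark many promoters of genes active in a wide range of tissues. They belong to the gene with the highest null level (Acta1), the largest rise (S1pr3), the largest fall (Klhl30) and the greatest distance from any domain (Ahdc1), the last 3 among genes with a mean of at least 3 log2 CPM. Each is the RefSeq sequence of rat build GRCr8 from 250 bases before to 50 bases after the gene's start, on the gene's strand, with every CG in capitals. The intervals are chr19:68784145-68784444 on the minus strand for Acta1, chr17:13945964-13946263 on the minus strand for S1pr3, chr9:99389764-99390063 on the plus strand for Klhl30 and chr5:150512628-150512927 on the plus strand for Ahdc1. All other coordinates in the text are of build rn6.
Acta1: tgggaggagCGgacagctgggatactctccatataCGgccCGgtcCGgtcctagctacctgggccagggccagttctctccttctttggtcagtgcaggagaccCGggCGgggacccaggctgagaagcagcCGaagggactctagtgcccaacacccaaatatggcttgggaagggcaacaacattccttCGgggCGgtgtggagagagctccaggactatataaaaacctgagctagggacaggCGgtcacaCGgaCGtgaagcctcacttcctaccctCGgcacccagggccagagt
S1pr3: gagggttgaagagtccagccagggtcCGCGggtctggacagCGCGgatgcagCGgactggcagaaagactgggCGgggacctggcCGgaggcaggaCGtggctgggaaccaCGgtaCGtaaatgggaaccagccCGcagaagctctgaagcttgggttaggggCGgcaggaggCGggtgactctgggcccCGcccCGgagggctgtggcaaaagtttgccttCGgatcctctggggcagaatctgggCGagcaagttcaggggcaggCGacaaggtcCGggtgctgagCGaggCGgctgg
Klhl30: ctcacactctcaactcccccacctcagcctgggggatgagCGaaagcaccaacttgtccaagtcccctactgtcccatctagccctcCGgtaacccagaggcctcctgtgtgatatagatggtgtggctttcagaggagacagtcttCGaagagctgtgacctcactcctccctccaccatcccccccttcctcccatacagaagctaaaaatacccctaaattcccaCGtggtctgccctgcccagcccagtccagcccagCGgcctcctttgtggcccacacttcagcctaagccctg
Ahdc1: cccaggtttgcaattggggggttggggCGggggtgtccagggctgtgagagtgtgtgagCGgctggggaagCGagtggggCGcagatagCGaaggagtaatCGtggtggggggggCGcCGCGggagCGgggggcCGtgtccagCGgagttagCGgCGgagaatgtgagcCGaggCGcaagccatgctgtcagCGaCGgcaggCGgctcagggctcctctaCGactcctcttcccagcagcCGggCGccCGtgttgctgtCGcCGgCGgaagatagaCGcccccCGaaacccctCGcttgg

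The Ahdc1 window held 29 CG and was 69.0% G or C. The S1pr3 window held 21 CG, the Acta1 window 13 and the Klhl30 window 5. At least as many CG stood in 12.3% of all 27457 RefSeq promoter windows for Ahdc1, in 24.5% for S1pr3, in 38.0% for Acta1 and in 63.8% for Klhl30. The letters TATAAA, searched on both strands, occurred in the Acta1 window alone of the 4, and in 14.3% of all windows. A promoter window was found for 7307 of the 9025 stretch genes (81.0%). These windows held a median of 22 CG (quartiles 14 to 29). The median was 20 CG for stretch genes under 100 kb from a domain and 22 for those over 1000 kb away. Windows were found for 77.4% of the genes in shorter gaps and 69.7% of those in domains, too few to set these regions beside the stretches, so the count is not shown to be particular to stretches.

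The 332 stretches covered 1149 Mb, which is 77.3% of the length of all gaps and 44.4% of the genome between the first and the last domain of each chromosome. Their median length was 2.30 Mb (quartiles 1.5 to 4.29 Mb). Of them, 137 measured 1 to 2 Mb, 69 exceeded 5 Mb and 15 exceeded 10 Mb, up to 21.8 Mb. Most stretches were thus no longer than 5 Mb, while a few were several times longer than the median. The domains at their borders had a median length of 290.7 kb over 664 borders, against 315.6 kb over all 1638 domains, and 93 stretches lay between 2 domains that were both under 300 kb. Just inside the length threshold were gaps of 1003201 bp on chromosome 2 with 6 table genes, 1004401 bp on chromosome 14 with 2 genes and 1005601 bp on chromosome 17 with 2 genes. Just outside were gaps of 999601 bp on chromosome 15 with 4 genes, 998401 bp on chromosome 2 with 7 genes and 997801 bp on chromosome 16 with 7 genes.

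**Figure D1:**
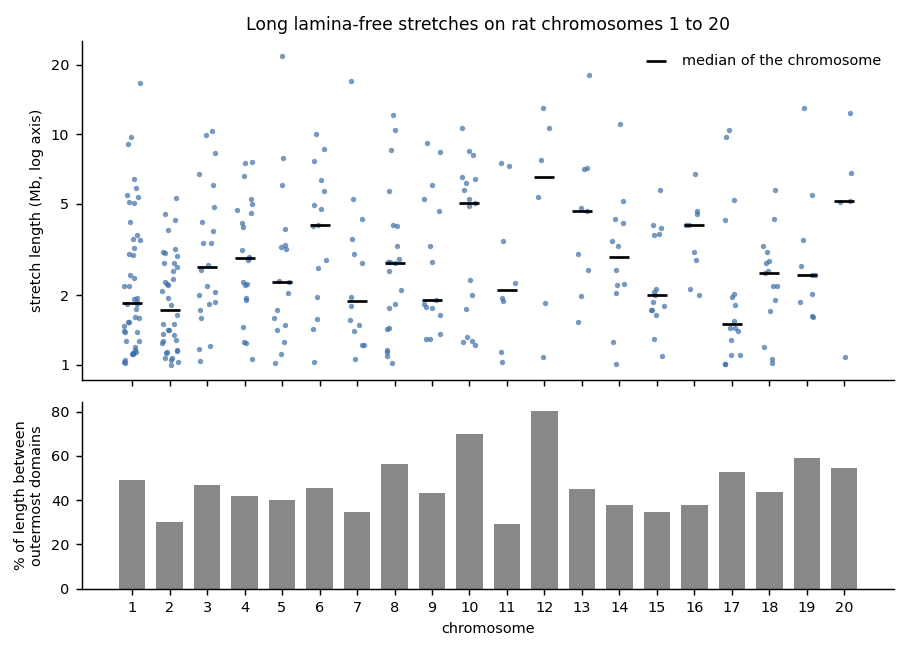
Length of each of the 332 stretches in Mb on a log axis (points, spread sideways at random) by chromosome, with the median of each chromosome as a bar, above the percent of the length between a chromosome's outermost domains that the stretches cover. Chromosome 12 reached 80.4% with 6 stretches, and chromosome 11 was lowest at 29.3% with 8.

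Every chromosome from 1 to 20 held long stretches. Chromosome 1 held 46 and chromosome 2 held 38, while chromosome 20 held 5, chromosome 12 held 6 and chromosome 11 held 8. On chromosome 12 the stretches made up 80.4% of the length between the outermost domains and on chromosome 10 they made up 69.8%, against 30.0% on chromosome 2 and 29.3% on chromosome 11. Table genes inside the stretches were densest on chromosome 10, with 12.1 per Mb, and on chromosome 7, with 10.7, and sparsest on chromosome 17, with 4.75. Coverage and density had a Spearman correlation of 0.32 across 20 chromosomes, given as a description only, since both are set by the same stretches.

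The stretches were rich in genes of the RNA table, which lists genes detected in these cells and is not a full annotation. They held 7.85 table genes per Mb, against 3.70 in shorter gaps and 0.321 inside domains, ratios of 2.12 and 24.5. Every stretch held at least 1 table gene, whereas 857 of the 1286 shorter gaps held none. A stretch held a median of 15.5 genes and at most 223, with 110 stretches holding 1 to 9, of which 4 held a single gene, and 13 holding at least 100. A further 28 genes lay partly in a stretch and crossed into a domain. The density inside stretches fell near their borders, with 3.55 gene midpoints per Mb in the outermost 100 kb, 6.60 from 100 to 250 kb, 7.27 from 250 to 500 kb, 8.15 from 500 to 1000 kb and 8.62 beyond 1000 kb. It also differed with length, from 6.62 genes per Mb in stretches of 1 to 2 Mb to 9.22 in the 15 stretches over 10 Mb.

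**Figure D2:**
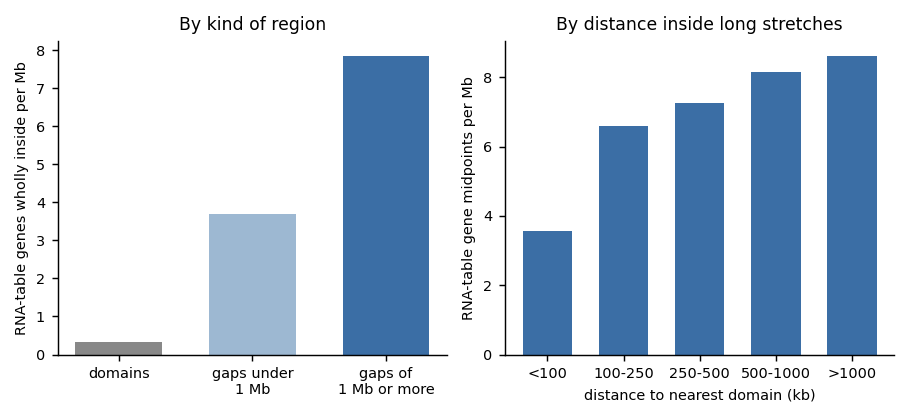
RNA-table genes per Mb wholly inside domains, gaps under 1 Mb and gaps of at least 1 Mb (left), and gene midpoints per Mb of stretch by distance to the nearest domain in kb (right). The bars rise from 0.321 in domains to 7.85 in long stretches, and from 3.55 beside a domain to 8.62 beyond 1000 kb.

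The gene order of RefSeq gave the share of known genes that the table lists. Of the table's 11049 protein-coding genes, 98.4% matched a RefSeq gene. In 234 stretches whose matched genes kept the same order in RefSeq (GRCr8, used for order only), 6557 RefSeq protein-coding genes lay between the outermost matched genes, and 61.4% of these were in the RNA table. Over chromosomes 1 to 20 the share was 47.7% of 22138. These shares are not alike, since each window in a stretch ended at genes that are in the table. Only stretches with at least 3 matched genes were used. Both limits can raise the share inside stretches.

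The 3 densest stretches were on chromosomes 7 and 16. The densest (chromosome 7, 10395000 to 13152600) held 104 table genes at 37.7 per Mb, with 20 higher and 41 lower of 98 tested. Among its genes was Nmrk2. Over all tested genes 27.5% were higher and 31.4% lower. The second (chromosome 7, 2416200 to 3477600) held 38 genes at 35.8 per Mb, among them Atp5b, Cs, which encodes the citrate synthase of the citric acid cycle, and Myl6, a myosin light chain of non-muscle and smooth muscle cells. The third (chromosome 16, 18531600 to 21632400) held 85 genes at 27.4 per Mb, with 11 higher and 37 lower of 83 tested. It held Gdf15, a stress-induced secreted factor that fell from 8.84 to 6.53 log2 CPM, and Tmem38a, a potassium channel of the sarcoplasmic reticulum that rose from 6.38 to 8.32. The sparsest stretches with at least 10 table genes held 3.14 per Mb (chromosome 20, 18438000 to 23538600, 16 genes), 3.36 per Mb (chromosome 8, 121245000 to 126895200, 19 genes) and 3.37 per Mb (chromosome 8, 30677400 to 33943800, 11 genes). The first of these held Tfam, which packages mitochondrial DNA and rose by 0.35 on the log2 scale. The third held Ets1 and Fli1, neighbouring transcription factors that rose by 0.59 and 1.67.

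The longest stretch (chromosome 5, 140425200 to 162232800) was 21.8 Mb long and held the most genes, 223 from Ppt1 to Pramef8. Of its 218 tested genes, 51 rose and 92 fell with shDesmin. Over all tested genes 27.5% were higher and 31.4% lower, and the counts given for single stretches follow the authors' scaling, since with library totals the median fold was below 0 in each of the 218 stretches with at least 10 tested genes. Within it Fabp3, which carries fatty acids in heart muscle, rose from 8.29 to 11.16 log2 CPM, while Trim63, the ubiquitin ligase MuRF1 that marks muscle proteins for breakdown, fell from 6.67 to 4.43. The next longest were 18.1 Mb on chromosome 13 (94711200 to 112858800, 87 genes, 31 higher and 29 lower of 85), 17.1 Mb on chromosome 7 (113549400 to 130642200, 204 genes, 42 higher and 87 lower of 199), 16.6 Mb on chromosome 1 (196150800 to 212753400, 129 genes, 25 higher and 54 lower of 124) and 13.0 Mb on chromosome 19 (48762600 to 61788600, 99 genes, 29 higher and 22 lower of 91). The 17.1 Mb stretch held Mb, myoglobin, and Atf4, the stress transcription factor, both higher. The 13.0 Mb stretch held Acta1 and Wfdc1.

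The desmin gene itself lay in a long stretch. Des (ENSRNOG00000019810, chromosome 9, 82556573 to 82564294) was 837 kb from the nearest domain, in a stretch of 4.64 Mb. Its level was 12.57, 12.54 and 12.60 log2 CPM with the null virus and 9.10, 9.13 and 9.32 with shDesmin. All 3 shDesmin libraries were far below every null library. The log2 fold, shDesmin minus null, was -3.39 (SE 0.10, adjusted p = 7.3e-09). The stretch held 47 genes, all tested, of which 13 were higher and 22 lower, beside 27.5% higher and 31.4% lower over all tested genes. In it, Speg, a muscle kinase, fell from 6.77 to 5.55 log2 CPM, and Mreg rose from 3.55 to 4.89.

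Levels are log2 CPM, reads per gene after the authors' adjustment for library size, on a log2 scale. They are not per gene length and do not rank genes, and the 0.5 reads added before the log understate changes of genes with few reads. The median stretch gene stood at 3.96 log2 CPM in null RNA (quartiles 2.23 to 5.37) with a median span of 20.3 kb. Genes of shorter gaps stood at 3.77 with a span of 25.4 kb, and genes wholly inside domains at 2.29 with a span of 22.1 kb. Per library, the median stretch gene stood at 4.0, 3.98 and 3.96 in null RNA and at 3.76, 3.71 and 3.78 in shDesmin RNA. For genes in domains the medians were 2.35, 2.25 and 2.32 in null RNA and 2.30, 2.23 and 2.40 in shDesmin RNA. Over all table genes they were 3.89, 3.87 and 3.86 against 3.69, 3.64 and 3.71. The null and shDesmin medians thus did not overlap for all table genes or for stretch genes, and overlapped for domain genes, under the authors' scaling.

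Stretch genes took 63.2%, 58.6% and 55.3% of the reads over all listed genes in null RNA and 55.0%, 51.7% and 51.9% in shDesmin RNA. Genes of the mitochondrial genome, which belong to no stretch, took 24.7%, 30.6% and 34.5% in null RNA and 35.0%, 39.1% and 39.0% in shDesmin RNA. Both shares are of the same total, so that a rise in one lowers the other. In bulk RNA, a smaller number of cells of a type and less RNA per cell cannot be told apart. The RNA libraries held 8724543 to 10908458 reads over the listed genes, and 3 reads, the upper limit a count of 0 allows, equal 0.230 to 0.447 CPM.

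Changes after desmin depletion went both ways inside the stretches. Of 8757 stretch genes tested, 2318 (26.5%) were higher and 2900 (33.1%) were lower in shDesmin RNA by limma with an adjusted p under 0.05. Over all 11033 tested genes, 27.5% were higher, 31.4% were lower and 58.9% were called in either direction, against 59.6% of stretch genes. Stretch genes make up most of the tested genes, so these shares are bound to lie close. Among the 2276 tested genes not in a long stretch, 31.5% were higher, 24.6% were lower and 56.1% were called. The 3 null and 3 shDesmin libraries did not overlap for 5714 stretch genes (65.3%), against 64.9% of all tested genes and 63.7% of those outside. At least a 2-fold change was called upward in 840 stretch genes (9.59%) and downward in 1323 (15.1%). The shares were 10.6% and 14.3% over all tested genes, and 14.5% and 11.3% among those not in a long stretch. The authors' deposited table puts 2289 stretch genes higher and 2936 lower at the same threshold. The split depends on the scaling between libraries. With library totals in place of the authors' scaling, which moved the median of all genes by -0.71, 576 stretch genes were higher and 5628 lower.

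The median log2 fold of stretch genes was -0.07 (quartiles -0.67 to 0.48), beside -0.04 over all tested genes, 0.08 in shorter gaps and 0.12 in domains. In domains 99 genes were higher and 65 lower of 339 tested, and 48.4% were called. Median centring moved all medians by 0.18 and quantile normalization moved the median of all genes by 0.15, so the sign of a median this near 0 is set by the scaling, and the stretch median was 0.11 with median centring. The median of stretch genes minus the median of the other tested genes was -0.16 on the log2 scale. Genes with low levels had lower folds, and levels differed between the regions. Splitting tested genes at mean levels of 2.80 and 4.79 log2 CPM gave stretch medians of -0.26, -0.23 and 0.16 from low to high level, beside -0.20, -0.20 and 0.18 over all genes, -0.07, -0.08 and 0.29 in shorter gaps and 0.08, 0.01 and 0.38 in domains. In each of the 3 level classes the stretch median was the lowest of the 3 kinds of region. No test was made of these differences.

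Distance was taken from the nearer end of a gene to the nearer of its 2 flanking domains. Stretch genes lay a median of 1104.5 kb from a domain (quartiles 509 to 2190 kb, range 9.12 to 10852 kb). Genes under 100 kb, 315 of them, had a median log2 fold of -0.01, with 27.4% of 310 tested higher and 32.3% lower. The 696 genes from 100 to 250 kb had a median of 0.11, with 32.2% of 680 higher and 27.5% lower. Under the authors' scaling, this was the single band in which more genes were higher than lower. The medians of the next bands were -0.04 for 1202 genes, -0.07 for 2018 genes and, beyond 1000 kb, -0.11 for 4794 genes, where 24.7% of 4653 were higher and 34.7% lower. The share called stayed between 58.3% and 60.8% in the 5 bands, against 58.9% over all tested genes, of which 27.5% were higher and 31.4% lower. The signs of the band medians depend on the scaling. With library totals these medians ran from -0.82 to -0.60, and median centring moved all medians by 0.18. Across 8757 genes the Spearman correlation of distance with log2 fold was -0.06 and with its absolute size -0.00, over genes that share libraries and stretches. The median null level was 3.52 log2 CPM under 100 kb and 4.04 beyond 1000 kb, with median gene spans of 26.7 and 18.2 kb. In shorter gaps, 530 genes under 100 kb from a domain had a median log2 fold of 0.14 and a null level of 3.59. A gene more than 1000 kb from every domain can only lie in a stretch over 2 Mb, so distance and stretch length are not separate.

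**Figure D3:**
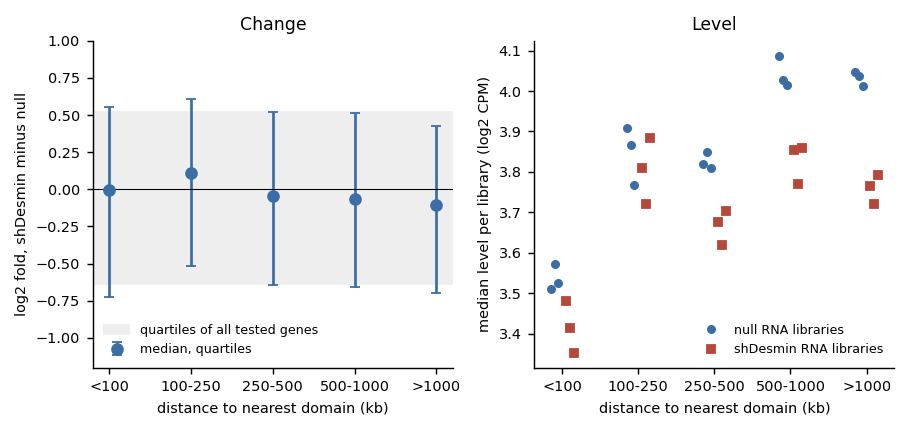
Median and quartiles of the log2 fold of stretch genes by distance to the nearest domain in kb, over the quartiles of all tested genes in grey (left), and the median level of the same genes in each of the 6 RNA libraries in log2 CPM (right). The medians lie between -0.11 and 0.11 and the quartiles of every band reach well to both sides of 0, under the authors' scaling.

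By stretch length, the median log2 fold was -0.03 for genes in stretches of 1 to 2 Mb and -0.04 for 2 to 5 Mb. It was -0.07 for 5 to 10 Mb and -0.16 for stretches over 10 Mb. In the last, 23.5% were higher and 38.6% lower, beside 27.5% and 31.4% over all tested genes. These values follow the authors' scaling. Single stretches were mixed. Of 218 stretches with at least 10 tested genes, 214 held genes of both directions. Their medians had quartiles of -0.19 and 0.09, and 103 lay above and 115 below the median of all tested genes, a split that turned to 113 above and 105 below with quantile normalization. Across these 218 stretches the Spearman correlation of the median log2 fold with genes per Mb was -0.27 and with length -0.04, as a description.

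**Figure D4:**
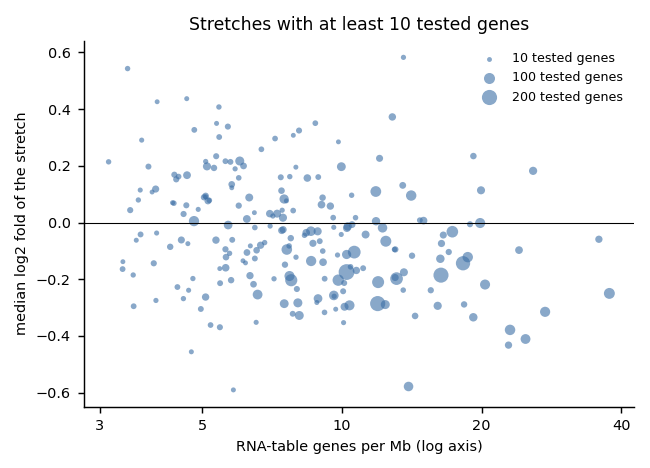
Median log2 fold of each of the 218 stretches with at least 10 tested genes against its RNA-table genes per Mb on a log axis, with the point's area growing with the number of tested genes. Stretches with few genes per Mb scatter from -0.59 to 0.54, and the densest, at 37.7 genes per Mb, stands at -0.25, under the authors' scaling.

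The highest median was 0.58, in a stretch of 1.11 Mb on chromosome 17 (42900000 to 44005800) with 6 higher and 2 lower of 13 tested. It is a histone gene cluster, in which the linker histone gene Hist1h1c rose from 6.08 to 7.31 log2 CPM and Hist1h2bq rose from 6.91 to 7.83, while the phosphate transporter gene Slc17a3 fell from 3.81 to -1.57. Histone genes are near copies of each other and may share reads. The second, 0.54, was in a stretch of 4.64 Mb on chromosome 13 (41192400 to 45834000) with 11 higher and 2 lower of 15. There Cxcr4, a chemokine receptor, rose by 0.99 on the log2 scale, Actr3, a subunit of the actin-branching Arp2/3 complex, rose by 0.47, and Zranb3, a DNA repair helicase, fell by 1.49. The third, 0.44, was on chromosome 1 (186635400 to 189014400) with 5 higher and 2 lower of 11. There Coq7, an enzyme of ubiquinone synthesis, rose by 1.29. Over all tested genes 27.5% were higher and 31.4% lower.

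The lowest medians were -0.59 on chromosome 11 (60752400 to 62639400, 3 higher and 3 lower of 11), -0.58 on chromosome 19 (36972600 to 42435600) and -0.46 on chromosome 10 (3618000 to 5943000, 0 higher and 6 lower of 11). Of the 3, the chromosome 19 stretch stood on the most genes, with 12 higher and 38 lower of 72 tested. In it Hsf4, a heat shock transcription factor, fell by 1.31, Nfat5, which responds to osmotic stress, fell by 1.05 and Slc12a4, a potassium chloride cotransporter, fell by 1.24 on the log2 scale. In the chromosome 10 stretch Dexi fell by 1.24 and Emp2, a membrane protein, fell by 0.72. In the chromosome 11 stretch Zbtb20, a transcriptional repressor, rose by 1.19. These stretches were chosen by their medians, so the counts describe them and test nothing. They are to be read beside the 27.5% higher and 31.4% lower over all tested genes.

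The 10 stretch genes with the highest null levels were Acta1, Des, Tnnt2, Mb, Myl3, Atp5b, Tpm1, Actc1, Ankrd1 and Cryab. Acta1, the skeletal muscle actin (chromosome 19, 56674074 to 56677084, 5112 kb from a domain), stood at 12.71, 12.71 and 12.79 log2 CPM in null RNA and at 13.72, 13.74 and 13.64 in shDesmin RNA. Actc1, the cardiac actin (chromosome 3, 105507403 to 105512939, 169 kb from a domain), stood at 12.19, 12.17 and 12.28 against 14.20, 14.44 and 14.28. Ankrd1, a stress-responsive partner of titin, stood at 11.67, 11.76 and 11.79 against 13.54, 13.77 and 13.62. In each of the 3 genes every shDesmin library lay above every null library. The folds were 0.96 (SE 0.13, adjusted p = 0.0001) for Acta1, 2.09 (SE 0.14, adjusted p = 6.1e-07) for Actc1 and 1.90 (SE 0.13, adjusted p = 6.4e-07) for Ankrd1, and Acta1 turned to -0.43 with quantile normalization. Tnnt2 (cardiac troponin T, 1.31), Mb (1.46), Myl3 (a ventricular myosin light chain, 1.04), Atp5b (the beta subunit of ATP synthase, 1.06), Tpm1 (tropomyosin, 1.33) and Cryab (the chaperone alpha-B crystallin, 0.57) were also higher, though Tnnt2, Myl3, Atp5b and Cryab changed sign with quantile normalization and Cryab also with library totals. Atp5b lay 88.5 kb from a domain and Mb 4552 kb.

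**Figure D5:**
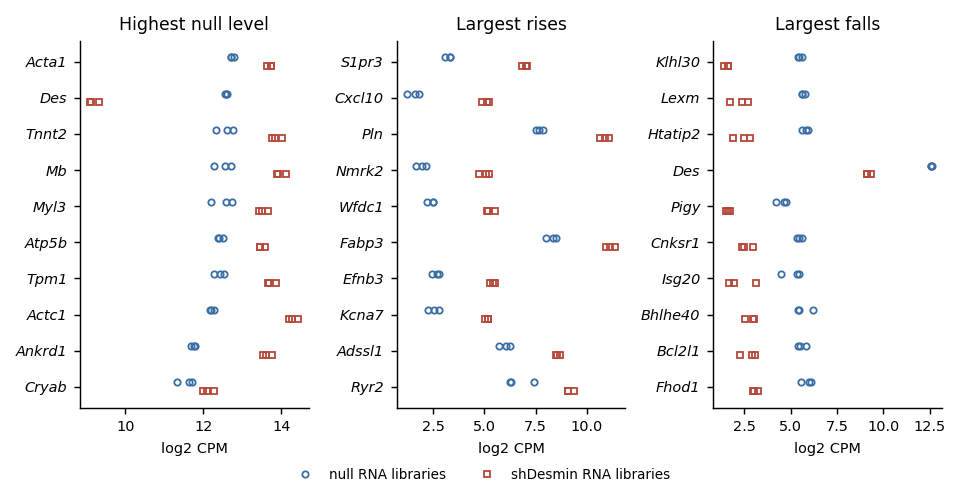
Level in log2 CPM of the 10 stretch genes with the highest null level, the 10 largest rises and the 10 largest falls, with null libraries as circles and shDesmin libraries as squares, 3 of each per gene. The groups do not overlap in any of these genes under the authors' scaling, which was a condition for choosing the rises and falls. Over all tested genes, 64.9% do not overlap. Acta1, Tnnt2, Myl3, Atp5b and Cryab change direction with quantile normalization.

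The largest rise was in S1pr3, a receptor for sphingosine 1-phosphate (chromosome 17, 13799383 to 13812704), which lay 632 kb from a domain in a stretch of 10.4 Mb. It stood at 3.32, 3.05 and 3.31 log2 CPM in null RNA and at 6.81, 7.06 and 7.03 in shDesmin RNA. The groups were far apart, with a log2 fold of 3.74 (SE 0.12, adjusted p = 8.1e-09). Pln, the inhibitor of the calcium pump of the sarcoplasmic reticulum, stood at 7.52, 7.65 and 7.85 against 10.66, 11.09 and 10.91 (log2 fold 3.21, SE 0.12). Its stretch on chromosome 20 is only 1.08 Mb long, and the gene lay 292 kb from a domain. Ryr2, the calcium release channel, stood at 7.43, 6.22 and 6.30 against 9.38, 9.06 and 9.09, with 1 null library about 1 log2 unit above the others and still below every shDesmin library (log2 fold 2.52, SE 0.25). It lay 122 kb from a domain in a stretch of 1.41 Mb.

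The other rises were of mixed function. The chemokine gene Cxcl10 rose by 3.54 on the log2 scale, Nmrk2, a muscle kinase of nicotinamide riboside, by 3.11, the secreted protein gene Wfdc1 by 2.90, Fabp3 by 2.87, the ephrin ligand gene Efnb3 by 2.78, the potassium channel gene Kcna7 by 2.61 and Adssl1, the muscle form of adenylosuccinate synthetase, by 2.57. These 10 genes lay in 10 stretches of 1.08 to 21.8 Mb and between 122 and 8104 kb from a domain. Kcna7 shared its stretch of 4.18 Mb on chromosome 1 with Hrc, which binds calcium inside the sarcoplasmic reticulum and also rose (log2 fold 2.41). Adssl1 shared a stretch of 4.73 Mb on chromosome 6 with the kinase gene Akt1 (log2 fold 1.03).

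The largest fall was in Klhl30, a kelch family gene (chromosome 9, 98490608 to 98500867), which lay 2636 kb from a domain in a stretch of 9.20 Mb. It stood at 5.62, 5.47 and 5.38 log2 CPM in null RNA and at 1.61, 1.38 and 1.61 in shDesmin RNA. All shDesmin libraries were far below the null libraries, with a log2 fold of -3.95 (SE 0.15, adjusted p = 1.9e-08). Bcl2l1, which encodes the survival protein Bcl-xL (chromosome 3, 148259596 to 148313810), stood at 5.81, 5.39 and 5.50 against 2.89, 2.28 and 3.09. Bhlhe40, a repressor linked to the circadian clock, stood at 6.19, 5.46 and 5.38 against 3.03, 2.56 and 2.98. Fhod1, a formin that organises actin, stood at 5.54, 5.97 and 6.09 against 3.24, 2.97 and 3.00. The folds were -2.81 (SE 0.20), -2.82 (SE 0.21) and -2.80 (SE 0.16). The groups do not overlap in any of the 3, which the choice of the largest falls required. Isg20, an interferon-induced exonuclease, varied more, at 4.49, 5.34 and 5.44 against 3.12, 1.68 and 1.94 (log2 fold -2.84, SE 0.34). Lexm fell by 3.40, Htatip2, an oxidoreductase, by 3.40, Pigy, of glycolipid anchor synthesis, by 2.93 and Cnksr1, a scaffold of Ras signalling, by 2.86. Cnksr1 lay 9775 kb from a domain in the same stretch as Fabp3.

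The 5 tested genes farthest from a domain, at mean levels of at least 3 log2 CPM, all lay near the middle of the longest stretch on chromosome 5. Ahdc1, which encodes an AT-hook DNA-binding protein (151211342 to 151277165), lay 10786 kb away and stood at 4.38, 4.39 and 4.38 log2 CPM in null RNA and at 2.94, 2.70 and 3.14 in shDesmin RNA. Its libraries did not overlap, with a log2 fold of -1.46 (SE 0.16, adjusted p = 1.4e-05). The kinase gene Map3k6 fell by 0.95, Fam76a by 0.51 and Tmem222 by 0.50. Wdtc1, at -0.20, did not pass the threshold (adjusted p = 0.13). The calls of Fam76a and Tmem222 were lost with median centring (adjusted p = 0.095 and 0.090).

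The 5 tested genes nearest to a domain, at mean levels of at least 3 log2 CPM, lay 11.8 to 17.5 kb away. Ssbp2, a single-stranded DNA-binding protein gene (chromosome 2, 20431243 to 20702515), stood at 3.03, 3.02 and 3.04 log2 CPM in null RNA and at 4.28, 4.38 and 4.24 in shDesmin RNA. Each shDesmin library was above the null libraries (log2 fold 1.27, SE 0.14, adjusted p = 1.6e-05). The transporter gene Slco3a1 was higher by 0.61, and its sign turned with library totals. Fam204a at 0.12, Stk3, a Hippo pathway kinase, at -0.36 and Cul1, the scaffold of SCF ubiquitin ligases, at 0.04 did not pass the threshold (adjusted p = 0.57, 0.12 and 0.73), and Fam204a and Cul1 were negative with library totals. For comparison, the gene with the highest null level wholly inside a domain was Acadl, a mitochondrial acyl-CoA dehydrogenase, at 9.60, 9.70 and 9.78 log2 CPM with the null virus and 10.74, 10.93 and 10.79 with shDesmin.

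Genes of the contractile apparatus lay mostly in the stretches, as 79.3% of all table genes did, and were mostly higher. Of 30 sarcomere genes in the table, 27 (90.0%) lay in a stretch, with 22 higher and 2 lower of 27 tested. Over all tested genes 27.5% were higher and 31.4% lower. The median log2 fold of these sarcomere genes was 1.33, against -0.04 over all tested genes. Myom2, an M-band protein, stood at 8.69, 8.61 and 8.76 log2 CPM in null RNA and at 11.11, 11.16 and 11.14 in shDesmin RNA, with no overlap (log2 fold 2.45, SE 0.09). Myh6, the alpha myosin heavy chain, rose by 2.04, Ldb3, a Z-disc protein, by 1.77 and Myom1 by 1.80. Among the 2 members that fell was Xirp1, an actin-binding protein of cell junctions, at -2.14. With quantile normalization 15 were higher and 6 lower, and with library totals 19 and 3. Distances ran from 117 to 8073 kb.

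Of 27 genes of calcium handling and ion channels in the table, 22 (81.5%) lay in stretches, near the 79.3% of all table genes. Of these, 19 were higher and 1 lower with a median log2 fold of 1.14, beside 27.5% higher and 31.4% lower over all tested genes. With library totals 11 were higher and 4 lower, with a median of 0.43. Atp2a2, the calcium pump SERCA2, stood at 10.81, 10.54 and 10.55 log2 CPM in null RNA and at 12.93, 12.93 and 12.91 in shDesmin RNA, without overlap (log2 fold 2.29, SE 0.12). The pacemaker channel genes Hcn2 and Hcn4 rose by 1.78 and 1.51, and the potassium channel gene Kcnd3 fell by 0.85. Of 33 nuclear genes of oxidative phosphorylation in the table, 28 (84.8%) lay in stretches and all 28 were higher, with a median of 1.17 and none lower. Uqcrc2, a core subunit of complex III 58.8 kb from a domain, stood at 9.43, 9.30 and 9.37 against 10.79, 10.92 and 10.77, with no overlap. Sdhc and Sdhd, the membrane anchors of complex II, rose by 1.38 and 1.54. With quantile normalization 21 of the 28 were higher, with library totals 24 were, and the sign of Atp5b turned.

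Of 33 cytosolic ribosomal protein genes in the table, 25 (75.8%) lay in stretches, near the 79.3% of all table genes. Of 24 tested, 17 were higher and 1 lower with a median of 0.53, beside 27.5% higher and 31.4% lower over all tested genes. With library totals 0 were higher and 7 lower, so that the direction rests on the scaling. Rps2 stood at 7.91, 8.09 and 8.32 log2 CPM in null RNA and at 9.02, 9.09 and 8.90 in shDesmin RNA. Its groups did not overlap. The member that fell was Rps18, at -0.87. Of 20 kinases and phosphatases of signalling, 17 (85.0%) lay in stretches, with 12 higher, 0 lower and a median of 0.58, beside the same background. With library totals 3 were higher and 5 lower. Prkaca, the catalytic subunit of protein kinase A, stood at 6.78, 6.82 and 6.80 against 8.43, 8.61 and 8.58 (log2 fold 1.74, SE 0.09).

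Other lists went both ways inside the stretches under the authors' scaling, beside the 27.5% higher and 31.4% lower over all tested genes. Among 17 cardiac transcription factor genes, 16 were tested, with 3 higher and 6 lower. With library totals 0 were higher and 12 lower. Nkx2-5, a regulator of heart formation, stood at 6.72, 6.95 and 6.89 log2 CPM in null RNA and at 5.40, 5.55 and 5.56 in shDesmin RNA. Gata4, its partner at cardiac genes, fell by 1.48, while Srf, the serum response factor, rose by 0.86. Nkx2-5 and Rps2 share a stretch of 8.13 Mb and moved in opposite directions. Among 19 immediate early and stress genes, 4 were higher and 8 lower, against 2 and 14 with library totals. Atf4 stood at 1.35, Trib3, a stress-induced pseudokinase, at -1.80 and the AP-1 factor gene Jund at -1.0 on the log2 fold scale. Of 44 homeobox and developmental genes listed, 12 were in the table and 8 in stretches, where Pbx3 fell by 0.63. Of 35 neuronal adhesion and channel genes listed, 4 were in the table and 1, Nlgn2, lay in a stretch at 1.56 log2 CPM in null RNA.

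Genes of the nuclear lamina and of the filaments attached to it lay in stretches about as often as the 79.3% of all table genes. Of 23 lamina and LINC complex genes in the table, 18 (78.3%) lay in stretches, with 4 higher, 6 lower and a median of -0.21, and of 11 intermediate filament genes and partners, 9 (81.8%) did. The lamina counts were 6 higher and 5 lower with median centring and 0 higher and 11 lower with library totals, and all are to be read beside the 27.5% higher and 31.4% lower over all tested genes. Lmna, which encodes lamins A and C (chromosome 2, 187842885 to 187863516, 1830 kb from a domain), stood at 8.49, 8.80 and 8.64 log2 CPM in null RNA and at 7.80, 7.60 and 7.88 in shDesmin RNA. The groups did not overlap (log2 fold -0.88, SE 0.11). Banf1, which bridges DNA and the lamina, rose by 0.74. Ncoa5, counted among the 6 lower, fell by 1.40, but it is a nuclear receptor coactivator and no part of the lamina or the LINC complex. Lmnb1 and Lmnb2, the B-type lamins, at -0.51 and 0.28, did not pass the threshold (adjusted p = 0.13 and 0.29). Among the 9 filament genes and partners, 3 were higher and 5 lower, against 2 and 6 with library totals. Dsp, the desmosome protein desmoplakin, rose by 1.51 and Synm, the filament protein synemin, by 1.48, whereas Plec, the cytolinker plectin, fell by 0.79. Of 22 microtubule genes in stretches, 6 were higher and 10 lower, against 7 and 8 with median centring and 1 and 18 with library totals. Tubb4b, a beta tubulin, stood at 8.58, 8.79 and 8.81 against 6.57, 6.25 and 6.26, with no overlap (log2 fold -2.37, SE 0.11). Tubb6 and Tubb5 fell by 1.99 and 1.29, while Mapre2, a protein of growing microtubule ends, rose by 1.36. Tubulins, actins and ribosomal proteins have close copies, and how reads of such copies were counted is not given in the sources used here.

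Marker genes of several cell types moved with these groups. Counts of markers called are to be read beside the 27.5% higher and 31.4% lower over all tested genes. The summed level of 9 cardiomyocyte markers in the table ran from 19462 to 24008 CPM in null RNA and from 62788 to 74489 in shDesmin RNA, and all 7 of them in stretches were higher. The 5 fibroblast markers summed to 8.76 to 19.3 CPM in null RNA and 25.4 to 60.8 in shDesmin RNA, with 2 of 3 in stretches higher. The 9 endothelial markers summed to 147 to 237 CPM against 272 to 399, with 4 higher and 1 lower of 8 in stretches. The 8 smooth muscle and pericyte markers, Des among them, summed to 6409 to 6496 CPM against 1095 to 1523, with 5 higher and 2 lower. The 2 lower were Des and Cspg4. Des, the target of the shRNA, made up most of the null sum, at 6096.5 CPM from its mean null level. The fall of this sum is thus that of Des and is no fall of the set, as 5 of the 8 were higher under the authors' scaling. With library totals 1 was higher and 2 lower. The 2 of 10 macrophage markers that are in the table, Csf1r and Cd68, summed to 16.1 to 17.1 CPM in null RNA and 2.87 to 3.77 in shDesmin RNA, and Csf1r stood at 3.94, 3.91 and 3.88 log2 CPM against 0.75, 0.90 and 0.58. Cd68, at a log2 fold of 0.19, did not pass the threshold (adjusted p = 0.69). The null and shDesmin ranges of these 5 sums did not overlap under the authors' scaling. With library totals the fibroblast and endothelial ranges did, at 9.99 to 24.2 against 20.1 to 47.4 and at 171 to 299.7 against 199 to 312. Of the markers in the table none was at 0 reads in every library, and 5 of 10 fibroblast markers were in it. The part of these markers in the changes above was not tested.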

How the data were processed

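Per the submitters' processing notes, Trimmomatic 0.32, STAR 2.6.0c, featureCounts, edgeR and limma were used for RNA and BWA, Picard, SAMtools, deepTools and bedtools for ChIP, without saying at which step. The deposited RNA table gives log2 values, scaled for each library by the authors. In every library 100% of them correspond to whole reads plus 0.5 within 0.001 reads, and a constant shared by all libraries (5.70) was subtracted to give log2 CPM. The authors' deposited table of differential expression, with signed folds (a score), moderated t (a score) and p-values, served only as an alternative. Domain starts are multiples of 600 bp, no domain or gap in the list is shorter than 50.4 kb, and 1638 of 1883 domains lie on chromosomes 1 to 20. Gene positions come from the RNA table. Parts of chromosomes outside the outermost domains are no stretch.

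Tests used limma 3.58.1 (R 4.3.3, lmFit and eBayes, trend on, group as the only term) on the 11033 of 11383 genes with 3 or more of the 6 libraries above 0 log2 CPM, with the Benjamini-Hochberg adjustment over all of them, two-sided, at 0.05. The comparison of shDesmin and null RNA was tested on simulated counts of 11033 genes, where the fit found 93 of 100 genes given a log2 change of 1, 98 of 100 given a change of 2, and 6 that were given none. The simulation gave every gene the same dispersion, 0.01, changed few genes, equally in both directions, and scaled by library totals. The real data differ in these points, so its counts do not carry over to the real comparison. Genes named are, inside stretches and with a symbol that is not an ID, the 10 with the highest null level, the 10 largest rises and falls among called genes with a mean of at least 3 log2 CPM and groups that do not overlap, the 5 farthest from and nearest to a domain at that level, and up to 3 members of each gene list with the smallest adjusted p. Some genes that meet these rules are not reported here. Further genes of named stretches and lists were chosen after their values were seen. The stretches, gene lists and rules were chosen with earlier results of these data known. List symbols were matched by symbol, then RefSeq synonym. Replicates of a group differed beyond sampling noise (4.79 to 36.6 chi-square per degree of freedom). Limits from read counts cover counting error only. Alternatives covered the low-value filter, pseudocount, scaling, variance model, replicate block, each library left out, the authors' table, gap length, gene placement and distance. The 22 ChIP libraries, 10 of them re-runs, were not analysed here singly. Calculations used Python 3.11.15, numpy 2.4.6 and pandas 2.3.3, and plots matplotlib 3.10.9.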

Additional observations from a re-analysis of the deposited data

How the results depend on the processing

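Library totals in place of the authors' scaling changed the most. Over all tested genes 802 were then higher and 6892 lower, inside stretches 576 and 5628, and the stretch median was -0.78. By distance from under 100 to over 1000 kb the median log2 folds were -0.72, -0.60, -0.76, -0.78 and -0.82 and the null levels 3.87, 4.21, 4.15, 4.39 and 4.39 log2 CPM. Median centring put the stretch median at 0.11. A minimum gap of 500000 bp gave 536 stretches, whose genes stood 0.78 log2 CPM above the others, and 2000000 bp gave 195 stretches, 0.44 above, with a fold difference to other genes of -0.12, against 332, 0.52 and -0.16. Distances from gene midpoints gave null levels of 3.48 under 100 kb and 3.84 from 250 to 500 kb (3.52 and 3.79 from gene ends). Leaving out each library gave fold differences of -0.18 to -0.13, stretch medians of -0.08 to -0.05, and 2014 to 2429 genes higher and 2502 to 2875 lower inside stretches.

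The labels do not state if libraries of the same number are paired. Same-numbered deviations from group means correlated at 0.13, -0.07 and -0.17. This cannot settle the pairing, since libraries of different numbers were not compared. With the number as a replicate block, 2356 stretch genes were higher and 2923 lower. Of 1225 log2 folds of 82 named genes under the alternatives, 1182 stayed called or stayed uncalled, 26 lost the call and 6 gained one. The other 11 turned, with a call before or after the change. Folds that changed sign without a call in either setting are counted among the 1182. With quantile normalization Acta1 was -0.43, Atp5b -0.19, Cryab -0.64, Myl3 -0.18 and Tnnt2 -0.040, and with library totals Cryab was -0.14, Cul1 -0.67, Eng -0.12, Fam204a -0.59, Rpl5 -0.0032 and Slco3a1 -0.10. The causes were not tested.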
